A study of Mus musculus with 12 samples.

Results

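The genes described here encode receptors for GABA, glycine, acetylcholine, monoamines, neuropeptides, adenosine and signalling lipids, together with the precursors of several neuropeptides. They were chosen by symbol, from the table of coding genes that the authors had called differential between sorted populations, and 46 of its 4859 genes matched. The table covers FACS-sorted cells from the cerebral cortex of Tg(Ebf2-EGFP)FB58Gsat mice, which carry EGFP on a bacterial artificial chromosome under the control of the *Ebf2* gene. EGFP-expressing cells (Ebf2-EGFP+) and the remaining cells of the same cortices (Ebf2-EGFP-) were collected at E11.5 (embryonic day), at E13.5 and again at E15.5, and each of these 6 groups had 2 libraries made from pooled embryos. EGFP marks preplate neurons at E11.5, both subplate and Cajal-Retzius cells. Subplate cells are losing it at E13.5, and by E15.5 it marks mostly Cajal-Retzius cells. The Ebf2-EGFP- cells are a mixture that is rich in progenitors at E11.5 and gains cortical plate neurons with age. Levels are FPKM, fragments scaled by transcript length and by the mapped fragments of a library, and the files do not give the sequencing depth of each library. Because the table lists only genes that the authors reported as differential in these same libraries, each count below describes that list, and other receptor genes were not analysed here.

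GABA-A and glycine receptors are chloride channels, nicotinic receptors are cation channels, and GABA-B, muscarinic, adrenergic, dopamine, adenosine, neuropeptide, cannabinoid, lysophosphatidic acid and sphingosine 1-phosphate receptors signal through G proteins. In the embryonic cortex GABA and glycine depolarise many immature neurons, because the chloride content of these cells is high. Receptors appear there long before most synapses form, and ambient transmitter acts on division, migration and early network activity.

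Defining markers followed the labels of the sorted populations. *Ebf2* itself was at 61.2 and 49.1 against 1.17 and 0.952 FPKM at E11.5, 6.66 and 4.32 against 1.54 and 1.05 at E13.5 and 2.83 and 5.14 against 0.103 and 0.0644 at E15.5, where the Ebf2-EGFP+ pair is given first in this and every later sentence of this form and replicate 1 precedes replicate 2. *Reln*, the secreted glycoprotein of Cajal-Retzius cells, was at 75.9 and 76.3 against 2.98 and 2.79 FPKM at E11.5, 125 and 187 against 2.77 and 4.22 at E13.5 and 399 and 925 against 13.7 and 10.6 at E15.5. All 10 Cajal-Retzius markers of a marker list were in the table, and their summed level was 443 and 402 against 19.3 and 19.7 FPKM at E11.5, 216 and 268 against 14.1 and 14.5 at E13.5 and 613 and 1278 against 26.4 and 18.7 at E15.5, with *Reln* the most abundant. Here and below, the most abundant gene of a list is the one with the highest mean over all 12 libraries, and in single libraries another gene can lead, as *Nhlh2* did in the Ebf2-EGFP+ libraries of E11.5 (107 and 83.7 FPKM). No Ebf2-EGFP+ sum overlapped an Ebf2-EGFP- sum, but the Ebf2-EGFP+ libraries of E15.5 differed from each other by more than those of the other stages. In bulk libraries of this kind, fewer cells of a type and less RNA per cell cannot be told apart.

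Differences were tested with limma on log2(FPKM + 1) over all 4859 genes, with a gene called at an adjusted p below 0.05, and each value is given as the log2 difference ± its standard error (SE), Ebf2-EGFP+ minus Ebf2-EGFP- or E15.5 minus E11.5. On this scale the change of a gene with a low level is understated. The genes of the table had been selected as differential in these same libraries. An adjusted p therefore orders genes within this list and does not control the rate of false calls. At E11.5, 24 of the 46 genes were called higher in Ebf2-EGFP+ cells, against 36.8% of all genes in the table, and 9 were called lower, against 44.9%. At E13.5 the counts were 25 higher (32.1% of all genes) and 10 lower (43.5%), and at E15.5 they were 22 higher (25.8%) and 13 lower (31.6%). As shares of the 46 genes, those called higher made up 52.2%, 54.3% and 47.8% at the 3 stages. The median log2 difference of the 46 genes was 0.61, 0.64 and 0.37, beside -0.19, -0.19 and -0.11 for all genes. Scaling the libraries by the median of ratios moved the median of all genes by 0.19, 0.19 and 0.13 in these comparisons, so small differences are to be read against that shift.

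With age, comparing E15.5 with E11.5, 23 of the 46 genes rose in the Ebf2-EGFP+ population (33.3% of all genes) and 12 fell (42.1%). In Ebf2-EGFP- cells 29 rose (37.7%) and 13 fell (47.6%). The scaling shift of the median of all genes was 0.14 and 0.22 in these stage comparisons. After scaling, 1878 of all genes rose and 1838 fell in Ebf2-EGFP+ cells, and 1994 rose and 2076 fell in Ebf2-EGFP- cells. The population difference itself, tested as an interaction, moved towards Ebf2-EGFP+ cells between E11.5 and E15.5 for 14 genes (32% of all genes) and towards Ebf2-EGFP- cells for 21 (27.7%). Such a move is signed, so that the 14 genes include *S1pr1* and *Ednrb*, whose differences stayed below 0 but were nearer to it at E15.5, and the 21 include *Sst*, whose difference was further below 0. These comparisons reuse the same libraries, so their counts are not independent of each other.

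By stage, 13 genes (28.3% of the 46, beside 14.6% of the table) were called higher in Ebf2-EGFP+ cells at every stage, among them 5 GABA-A subunits, both GABA-B subunits, *Glra2*, *Cnr1*, *Adora1*, *Cck*, *Adcyap1* and *Adrb1*. Lower at every stage were 6 genes (13%, beside 21.8% of the table), *Ednra*, *Ednrb*, *Lpar1*, *S1pr1*, *S1pr3* and *Sst*. The call turned from higher at E11.5 to lower at E15.5 for 4 genes, 8.7% of the 46 beside 3.68% of the table, namely the somatostatin receptors *Sstr1*, *Sstr2* and *Sstr3* and the PACAP receptor *Adcyap1r1*. Without Ebf2-EGFP+ replicate 2 of E15.5 the calls of *Sstr3* (-0.64) and *Adcyap1r1* (-0.47) at that stage ended. That of *Adcyap1r1* also ended after median-of-ratios scaling (-0.37). The opposite turn was made by 0 of the 46 genes and by 3.13% of the table. All of these calls are limma calls at an adjusted p below 0.05.

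**Figure D1:**
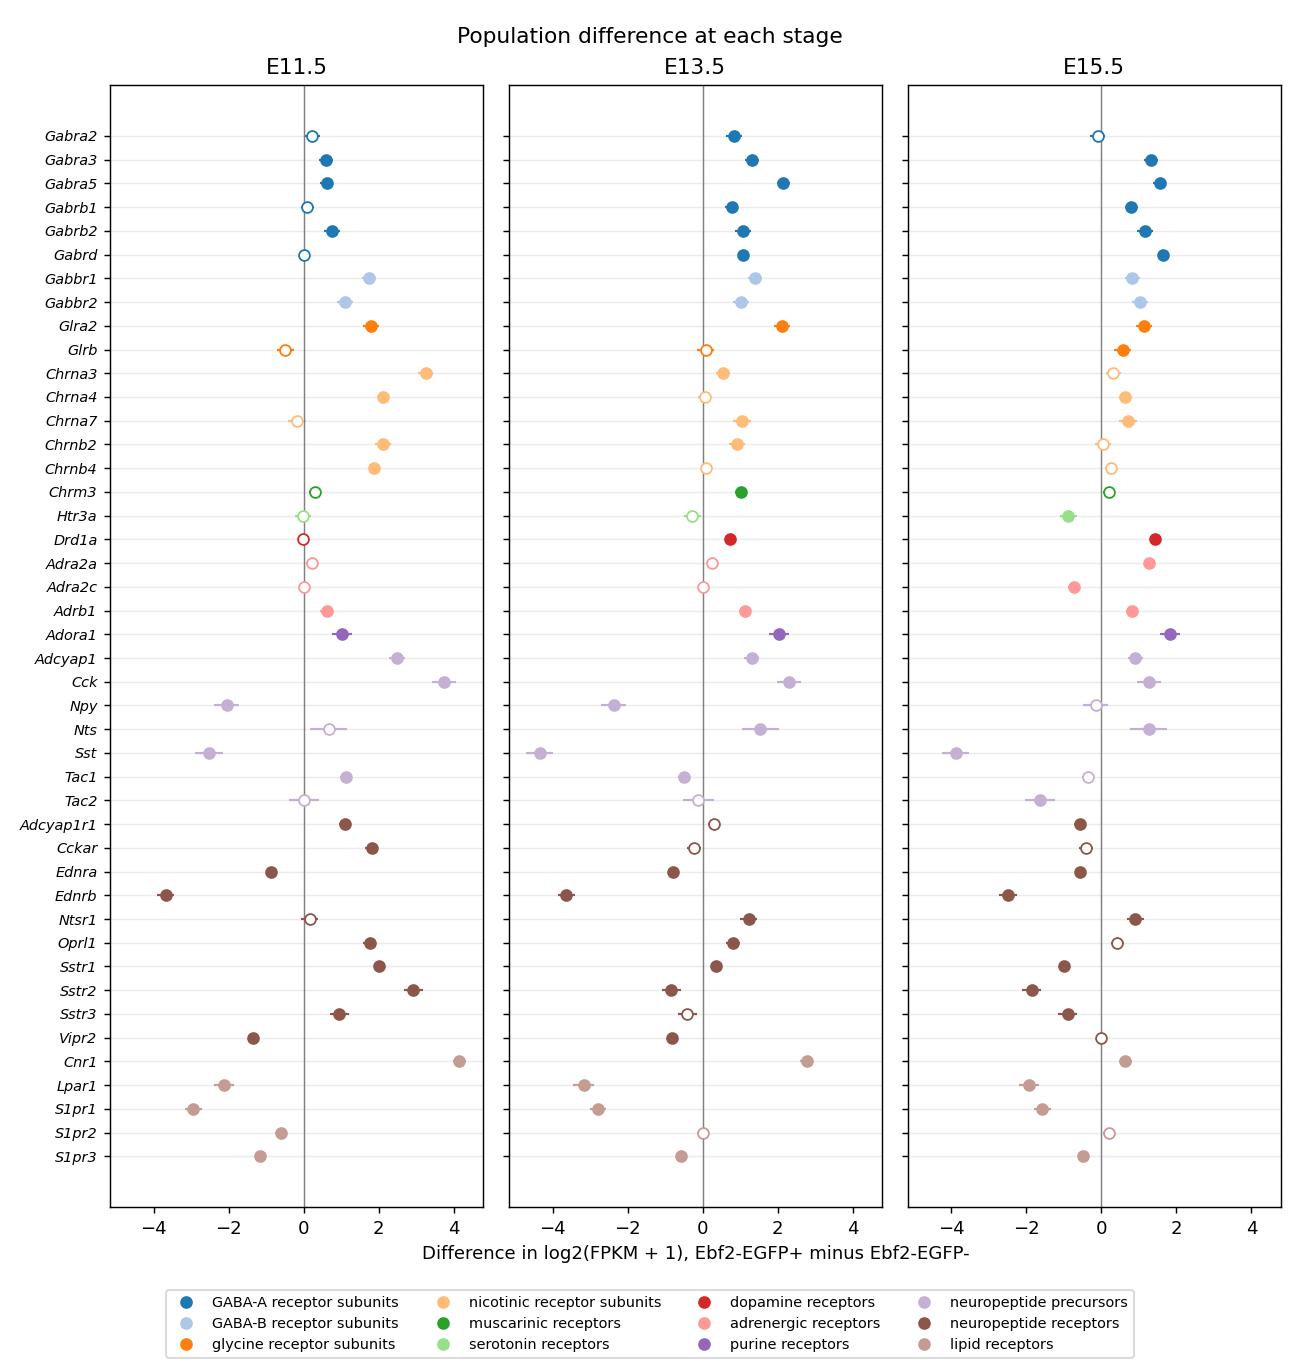
Difference in log2(FPKM + 1) between Ebf2-EGFP+ and Ebf2-EGFP- cells for receptor and precursor genes, 1 panel for each stage, coloured by role. Points are limma estimates from 2 libraries per group, bars are SE, and filled points are called at an adjusted p below 0.05. All filled points of GABA receptor subunits lie to the right of 0, while the somatostatin receptors move from right to left.

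GABA-A receptor subunits stood on the Ebf2-EGFP+ side wherever they were called between populations. Of the 8 in the table, 5 were called higher there at E11.5, then 8 and finally 7 at the later stages, and 0 were called lower at any stage. As shares of the 8 these were 62.5%, 100% and 87.5%, beside 36.8%, 32.1% and 25.8% of all genes. All 8 rose with age in Ebf2-EGFP+ cells and 6 of 8 rose in Ebf2-EGFP- cells, beside 33.3% and 37.7% of all genes.

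The alpha subunits set the affinity and kinetics of the receptor, and the 3 in the table differed from each other. *Gabra2* was at 3.82 and 4.10 against 3.27 and 3.20 FPKM at E11.5, 15.6 and 10.3 against 6.70 and 6.57 at E13.5 and 16.3 and 19.0 against 16.1 and 22.1 at E15.5. It was called higher in Ebf2-EGFP+ cells only at E13.5, at 0.84 ± 0.21 (adjusted p = 0.003), and at E15.5 the libraries of the populations overlapped. *Gabra3* was at 5.86 and 4.97 against 3.35 and 3.12 FPKM at E11.5, 8.25 and 6.75 against 2.27 and 2.50 at E13.5 and 10.53 and 13.54 against 3.66 and 4.78 at E15.5, and its difference was 0.60 ± 0.19 (adjusted p = 0.011) at E11.5 and 1.32 ± 0.19 (adjusted p = 1.4e-04) at E15.5. The *Gabra3* call at E11.5 ended without Ebf2-EGFP+ replicate 1 (adjusted p = 0.084) or Ebf2-EGFP- replicate 2 of that stage (adjusted p = 0.06). *Gabra5*, known from extrasynaptic receptors of the hippocampus, was at 0.861 and 0.807 against 0.163 and 0.240 FPKM at E11.5, 5.88 and 3.91 against 0.215 and 0.415 at E13.5 and 4.78 and 4.36 against 0.725 and 1.05 at E15.5. All Ebf2-EGFP+ libraries from E13.5 on were above every Ebf2-EGFP- library, and the difference was 0.61 ± 0.17 (adjusted p = 0.0062), 2.15 ± 0.17 (adjusted p = 3.7e-06) and 1.56 ± 0.17 (adjusted p = 2.6e-05) at the 3 stages. The growth of the *Gabra5* difference from E11.5 to E15.5, at 0.95 ± 0.24 (adjusted p = 0.006), was not called with a pseudocount of 0.1 (0.62, adjusted p = 0.27).

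FPKM is scaled by transcript length, so levels of different subunits can be set side by side within a library. Of the summed FPKM of *Gabra2*, *Gabra3* and *Gabra5*, the share of *Gabra2* was 36.2 and 41.5 against 48.2 and 48.7% at E11.5, 52.5 and 49.1 against 72.9 and 69.3 at E13.5 and 51.6 and 51.5 against 78.6 and 79.1 at E15.5. At each stage the share was smaller in both Ebf2-EGFP+ libraries than in both Ebf2-EGFP- libraries. The share of *Gabra5* was 8.17 and 8.17 against 2.405 and 3.66% at E11.5, 19.8 and 18.7 against 2.34 and 4.37 at E13.5 and 15.1 and 11.8 against 3.53 and 3.77 at E15.5, and in every stage it was larger in the Ebf2-EGFP+ pair. These shares are descriptions of the listed subunits and were not tested.

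*Gabrd* encodes the delta subunit of extrasynaptic receptors that respond to low GABA. It was listed at 0 and 0.0208 against 0 and 0.0220 FPKM at E11.5, 1.16 and 1.05 against 0 and 0 at E13.5 and 2.77 and 2.19 against 0.103 and 0.110 at E15.5. Levels above 1 FPKM were found in the Ebf2-EGFP+ libraries of E13.5 and E15.5 and in no other library. The difference was 1.07 ± 0.10 (adjusted p = 8.5e-06) at E13.5 and 1.65 ± 0.10 (adjusted p = 8.2e-07) at E15.5, the change from E11.5 was 1.65 ± 0.15 (adjusted p = 9.3e-06), and the rise in Ebf2-EGFP+ cells was 1.78 ± 0.10 (adjusted p = 1.0e-07).

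*Gabrb1*, a beta subunit of the kind that helps to form the GABA binding site, was at 0.155 and 0.189 against 0.108 and 0.0891 FPKM at E11.5, 0.793 and 0.934 against 0.0912 and 0.0771 at E13.5 and 2.63 and 1.81 against 1.25 and 0.507 at E15.5. *Gabrb2*, also a beta subunit, was at 4.06 and 3.71 against 1.93 and 1.83 FPKM at E11.5, 4.35 and 3.51 against 1.197 and 1.43 at E13.5 and 8.89 and 11.1 against 2.96 and 5.10 at E15.5. For both genes the Ebf2-EGFP+ libraries were above the Ebf2-EGFP- libraries within each stage. *Gabrb2* was called higher throughout, by 0.76 ± 0.21 (adjusted p = 0.0057), 1.09 ± 0.21 (adjusted p = 7.1e-04) and 1.16 ± 0.21 (adjusted p = 7.9e-04). *Gabrb1* was called at E13.5, at 0.78 ± 0.17 (adjusted p = 0.0017), and at E15.5, at 0.79 ± 0.17 (adjusted p = 0.0024), where a fit of the compared groups alone ended the call (adjusted p = 0.052) and the value without Ebf2-EGFP- replicate 2 of that stage was 0.50 (adjusted p = 0.019). The rise of *Gabrb2* in Ebf2-EGFP- cells, at 0.77 ± 0.21 (adjusted p = 0.0049), ended without replicate 2 of the Ebf2-EGFP- cells of E15.5 (0.46, adjusted p = 0.064).

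**Figure D2:**
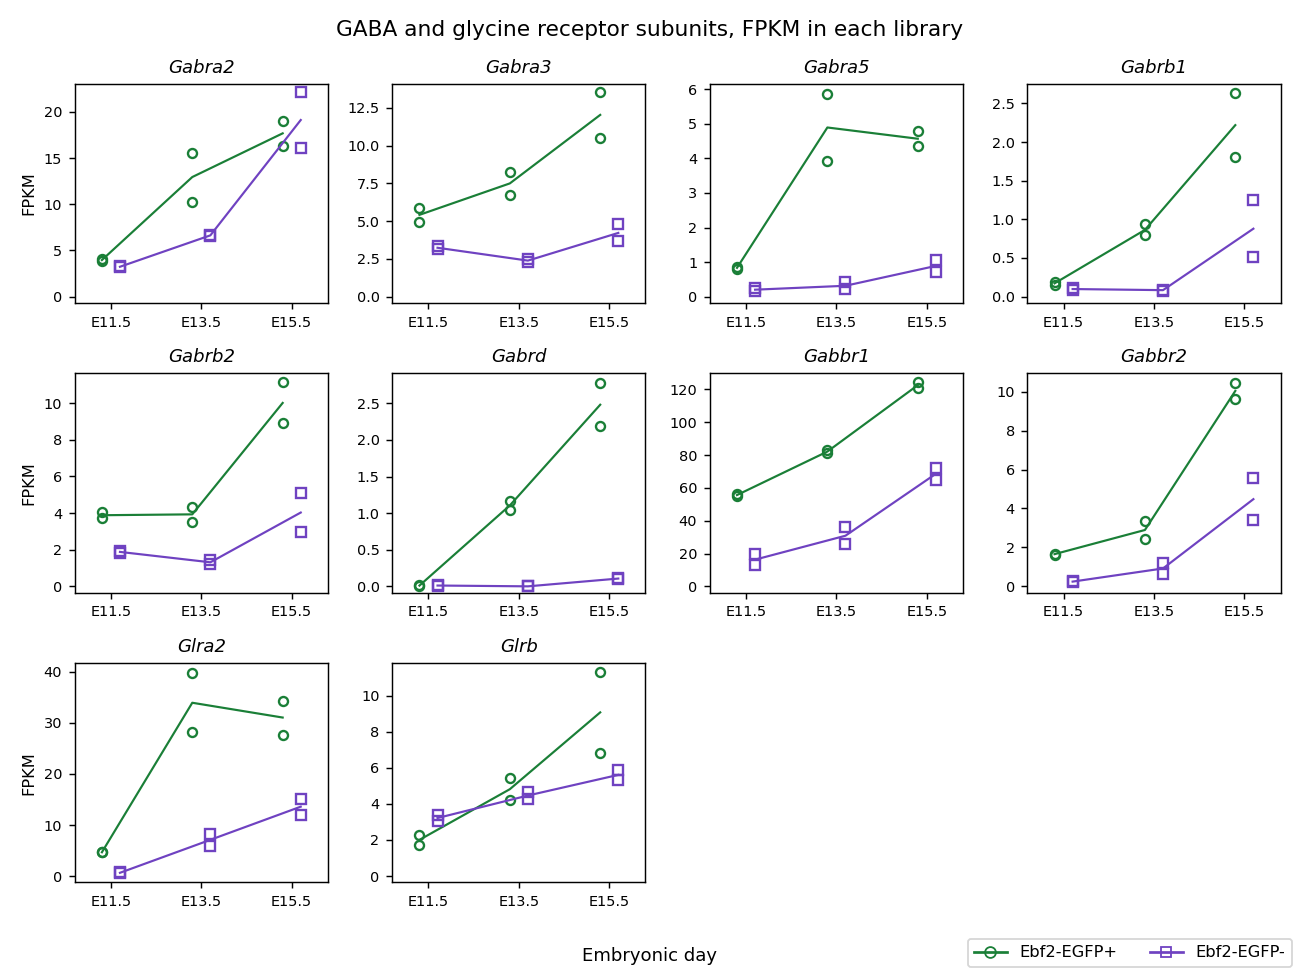
FPKM of 6 GABA-A, 2 GABA-B and 2 glycine receptor subunits by embryonic day. Each symbol is 1 library (circles Ebf2-EGFP+, squares Ebf2-EGFP-), lines join the means of 2 libraries, and the vertical scale is linear and differs between panels. *Gabrd* exceeds 1 FPKM only in Ebf2-EGFP+ cells of E13.5 and E15.5, whereas *Gabra2* overlaps between populations at E15.5.

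Both subunits of the GABA-B receptor were on the Ebf2-EGFP+ side at each stage and rose in both populations. *Gabbr1*, the subunit that binds GABA, was at 56.1 and 55.1 against 13.1 and 19.4 FPKM at E11.5, 81.3 and 82.9 against 25.8 and 35.9 at E13.5 and 124 and 121 against 65.1 and 72.1 at E15.5. No library overlapped the other population within a stage. The difference went from 1.74 ± 0.19 (adjusted p = 7.3e-06) at E11.5 through 1.40 ± 0.19 (adjusted p = 6.3e-05) to 0.83 ± 0.19 (adjusted p = 0.0032), and the change of -0.91 ± 0.27 (adjusted p = 0.013) was not called without Ebf2-EGFP- replicate 1 of E11.5 (adjusted p = 0.06). *Gabbr2*, the subunit that couples to G proteins, was at 1.68 and 1.62 against 0.260 and 0.226 FPKM at E11.5, 2.46 and 3.33 against 0.631 and 1.21 at E13.5 and 10.4 and 9.65 against 3.40 and 5.56 at E15.5. Its difference was 1.09 ± 0.21 (adjusted p = 5.4e-04), 1.03 ± 0.21 (adjusted p = 0.0011) and 1.04 ± 0.21 (adjusted p = 0.0017), and its change of -0.06 ± 0.30 (adjusted p = 0.88) was called only with a pseudocount of 0.1 (-1.17, adjusted p = 0.048). In every library *Gabbr1* had the higher FPKM of the pair.

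The glycine receptor subunits parted. *Glra2*, the alpha subunit of the embryonic receptor, was at 4.64 and 4.68 against 0.530 and 0.732 FPKM at E11.5, 39.8 and 28.1 against 5.94 and 8.25 at E13.5 and 27.7 and 34.4 against 12.02 and 15.2 at E15.5. Ebf2-EGFP+ libraries were above Ebf2-EGFP- libraries at all 3 stages, by 1.80 ± 0.21 (adjusted p = 1.3e-05), 2.11 ± 0.21 (adjusted p = 1.0e-05) and 1.14 ± 0.21 (adjusted p = 8.9e-04). The level rose by 2.49 ± 0.21 (adjusted p = 1.3e-06) in Ebf2-EGFP+ cells and by 3.16 ± 0.21 (adjusted p = 1.8e-07) in Ebf2-EGFP- cells over the 3 stages. The change of the difference, -0.66 ± 0.30 (adjusted p = 0.075), was called in 4 of 18 alternatives, among them the fit with a replicate block, in which libraries of the same number and stage were treated as pairs (adjusted p = 0.039), and a pseudocount of 0.1, with which it was -1.53 (adjusted p = 0.0033).

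*Glrb*, the beta subunit that anchors the receptor to gephyrin, was at 1.74 and 2.27 against 3.41 and 3.03 FPKM at E11.5, 5.44 and 4.19 against 4.67 and 4.26 at E13.5 and 6.82 and 11.3 against 5.35 and 5.88 at E15.5. At E11.5 both Ebf2-EGFP+ libraries were below both Ebf2-EGFP- libraries, at -0.49 ± 0.22 (adjusted p = 0.055), a difference called in 6 of 18 alternatives, the replicate block among them (adjusted p = 0.018). At E15.5 the order was opposite, at 0.57 ± 0.22 (adjusted p = 0.043), but that call ended in 11 of 18 alternatives (adjusted p from 0.0071 to 0.37), and it was 0.24 (adjusted p = 0.37) without Ebf2-EGFP+ replicate 2 of that stage and 0.90 (adjusted p = 0.0071) without replicate 1. The change between these stages was 1.07 ± 0.31 (adjusted p = 0.012), and it was not called without Ebf2-EGFP+ replicate 1 of E11.5 (adjusted p = 0.053). Of the summed FPKM of both subunits, *Glra2* made up 72.8 and 67.3 against 13.4 and 19.5% at E11.5, 88.0 and 87.0 against 56.0 and 65.9 at E13.5 and 80.3 and 75.2 against 69.2 and 72.1 at E15.5, so that *Glrb* was the larger part only in the Ebf2-EGFP- libraries of E11.5.

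*Gabra2* and *Gabrb1* lie on chromosome 5 of the mouse genome with 562071 bases and 1 coding gene, *Cox7b2*, between them. Positions are from RefSeq on GRCm38.p6, the assembly of mm10. At E15.5 the difference was -0.09 for *Gabra2* and 0.79 for *Gabrb1*.

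Genes that make, move and anchor GABA and glycine were taken from a list of 23, of which 16 were in the table. At E11.5, 6 were called higher in Ebf2-EGFP+ cells and 7 lower, 37.5% and 43.8% of the 16 and near the 36.8% and 44.9% of all genes. At E13.5 there were 4 higher and 9 lower (25% and 56.2%, beside 32.1% and 43.5%), and by E15.5 2 higher and 5 lower (12.5% and 31.2%, beside 25.8% and 31.6%). The enzymes of GABA synthesis and the vesicular transporter were low in Ebf2-EGFP+ cells. *Gad1* was at 0.545 and 0.936 against 5.55 and 10.52 FPKM at E11.5, 0.225 and 0.198 against 4.98 and 6.52 at E13.5 and 0.375 and 0.480 against 8.47 and 9.41 at E15.5. *Slc32a1*, which loads GABA and glycine into vesicles, was at 1.45 and 1.75 against 11.47 and 12.8 FPKM at E11.5, 0.131 and 0.122 against 5.32 and 5.19 at E13.5 and 0.523 and 0.337 against 11.6 and 6.17 at E15.5. Both were below 2 FPKM in all Ebf2-EGFP+ libraries and above 4 FPKM in all Ebf2-EGFP- libraries, and with *Gad2* they were called lower in Ebf2-EGFP+ cells at all 3 stages. *Slc12a2*, which imports chloride, was at 9.16 and 9.34 against 25.8 and 26.0 FPKM at E11.5, 7.93 and 8.52 against 15.53 and 15.7 at E13.5 and 5.57 and 4.87 against 9.37 and 7.64 at E15.5, with every difference on the lower side, at -1.39 ± 0.15 (adjusted p = 5.8e-06), -0.85 ± 0.15 (adjusted p = 3.4e-04) and -0.61 ± 0.15 (adjusted p = 0.0045). *Lhfpl4* and *Nlgn2*, which place GABA-A receptors at inhibitory synapses, were higher in Ebf2-EGFP+ cells at E11.5, by 1.16 ± 0.16 (adjusted p = 4.2e-05) and 1.00 ± 0.17 (adjusted p = 2.1e-04). At E15.5 the populations were closer, with *Lhfpl4* at 36.6 and 36.9 against 27.5 and 32.7 FPKM and *Nlgn2* at 74.7 and 67.3 against 57.6 and 64.2. The 16 genes had median differences of -0.34, -0.57 and 0.01 in the order of the stages.

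Markers of ganglionic eminence and interneurons were likewise low in Ebf2-EGFP+ cells. All 11 of the marker list, which holds *Gad1* and *Gad2* too, were in the table, and their summed level was 20.0 and 22.0 against 247 and 308 FPKM at E11.5, 4.90 and 3.57 against 97.8 and 85.5 at E13.5 and 3.68 and 4.36 against 115 and 94.2 at E15.5. In both Ebf2-EGFP+ libraries of E15.5 *Dlx6* and *Lhx8* were listed at 0, and so were *Gsx2* in replicate 2 of that pair, *Dlx6* and *Nkx2-1* in Ebf2-EGFP+ replicate 1 of E13.5, and *Lhx8* in Ebf2-EGFP- replicate 2 of E15.5. The part of such cells in the values of *Gad1*, *Gad2* and *Slc32a1* was not tested.

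Nicotinic acetylcholine receptor subunits were called between populations most often at the first stage, by counts whose difference was not tested. At E11.5, 4 of the 5 subunits (80%, beside 36.8% of all genes) were called higher in Ebf2-EGFP+ cells. At E13.5, 3 (60%, beside 32.1%) were called higher and 0 lower. At E15.5, 2 (40%, beside 25.8%) were called higher and 0 lower, and the population difference had become smaller for 4 (80% of the 5, beside 27.7% of all genes with a move towards Ebf2-EGFP- cells) and larger for 1 (20%, beside 32% with the opposite move). *Chrna3*, an alpha subunit best known from autonomic ganglia, was at 17.7 and 16.9 against 0.906 and 0.954 FPKM at E11.5, 1.47 and 0.653 against 0.390 and 0.366 at E13.5 and 0.733 and 0.336 against 0.295 and 0.144 at E15.5. Both Ebf2-EGFP+ libraries of E11.5 were above every other library, and all values from E13.5 on were below 1.5 FPKM. The difference was 3.24 ± 0.19 (adjusted p = 1.2e-07) at E11.5, and *Chrna3* fell in Ebf2-EGFP+ cells, with a change of -3.59 ± 0.19 (adjusted p = 6.4e-08). At E13.5 the difference of 0.55 ± 0.19 (adjusted p = 0.02) was not called without Ebf2-EGFP+ replicate 1 (0.26, adjusted p = 0.24), Ebf2-EGFP- replicate 1 (adjusted p = 0.067) or Ebf2-EGFP- replicate 2 of that stage (adjusted p = 0.068), and without Ebf2-EGFP+ replicate 2 it was 0.84 (adjusted p = 0.0035).

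*Chrna4*, the alpha subunit of the common high-affinity receptor of the brain, was at 25.4 and 22.7 against 5.04 and 4.58 FPKM at E11.5, 1.23 and 0.826 against 0.996 and 0.899 at E13.5 and 1.47 and 1.12 against 0.446 and 0.504 at E15.5. It was high in the Ebf2-EGFP+ libraries of E11.5, intermediate in the Ebf2-EGFP- libraries of that stage and below 1.5 FPKM in all later libraries. The difference was 2.11 ± 0.16 (adjusted p = 7.8e-07) at E11.5, 0.05 ± 0.16 (adjusted p = 0.78) at E13.5 and 0.63 ± 0.16 (adjusted p = 0.006) at E15.5. *Chrna4* fell in both populations, with changes of -3.45 ± 0.16 (adjusted p = 3.4e-08) and -1.98 ± 0.16 (adjusted p = 7.3e-07).

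The other 3 subunits were looked at after their values were seen. *Chrnb4*, the usual partner of *Chrna3*, was at 5.61 and 4.22 against 0.670 and 0.521 FPKM at E11.5, 0.535 and 0.376 against 0.324 and 0.404 at E13.5 and 0.513 and 0.288 against 0.220 and 0.128 at E15.5. It followed the same course, with a difference of 1.88 ± 0.14 (adjusted p = 7.1e-07) at E11.5 and a change of -2.07 ± 0.14 (adjusted p = 2.8e-07) in Ebf2-EGFP+ cells. *Chrnb2*, the usual partner of *Chrna4*, was at 32.7 and 32.8 against 6.38 and 7.19 FPKM at E11.5, 26.5 and 30.6 against 11.01 and 19.3 at E13.5 and 25.4 and 25.2 against 22.6 and 26.4 at E15.5. Its change with age was -0.36 ± 0.21 (adjusted p = 0.14) in Ebf2-EGFP+ cells, called in 3 of 17 alternatives, but it rose in Ebf2-EGFP- cells by 1.71 ± 0.21 (adjusted p = 1.3e-05), and the population difference went from 2.12 ± 0.21 (adjusted p = 3.8e-06) to 0.05 ± 0.21 (adjusted p = 0.86). *Chrna7*, which forms receptors without other subunits, was at 1.96 and 1.53 against 2.44 and 1.80 FPKM at E11.5, 13.3 and 15.54 against 5.11 and 8.01 at E13.5 and 16.4 and 11.3 against 7.79 and 8.07 at E15.5, and it rose by 2.42 ± 0.23 (adjusted p = 2.8e-06) in Ebf2-EGFP+ and 1.52 ± 0.23 (adjusted p = 6.2e-05) in Ebf2-EGFP- cells. The *Chrna7* difference at E15.5, 0.71 ± 0.23 (adjusted p = 0.02), was not called without replicate 1 of the Ebf2-EGFP+ (0.46, adjusted p = 0.17) or Ebf2-EGFP- cells (adjusted p = 0.07) of that stage or in a fit of the compared groups alone (adjusted p = 0.05), and the change of its difference, 0.89 ± 0.32 (adjusted p = 0.032), ended in 5 of 18 alternatives (adjusted p from 0.0051 to 0.12).

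As a share of the summed FPKM of the 5 subunits, *Chrna3* was 21.2 and 21.6 against 5.87 and 6.34% at E11.5, 3.42 and 1.36 against 2.19 and 1.26 at E13.5 and 1.65 and 0.878 against 0.940 and 0.409 at E15.5, and *Chrna4* was 30.4 and 29.1 against 32.7 and 30.5% at E11.5, 2.87 and 1.72 against 5.59 and 3.10 at E13.5 and 3.30 and 2.93 against 1.42 and 1.43 at E15.5. *Chrna7* was 2.35 and 1.96 against 15.8 and 11.98% at E11.5, 31.0 and 32.4 against 28.7 and 27.7 at E13.5 and 36.8 and 29.6 against 24.9 and 22.9 at E15.5. The mixture in both populations thus held *Chrna4* as its most abundant alpha subunit at E11.5 and *Chrna7* at the later stages.

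**Figure D3:**
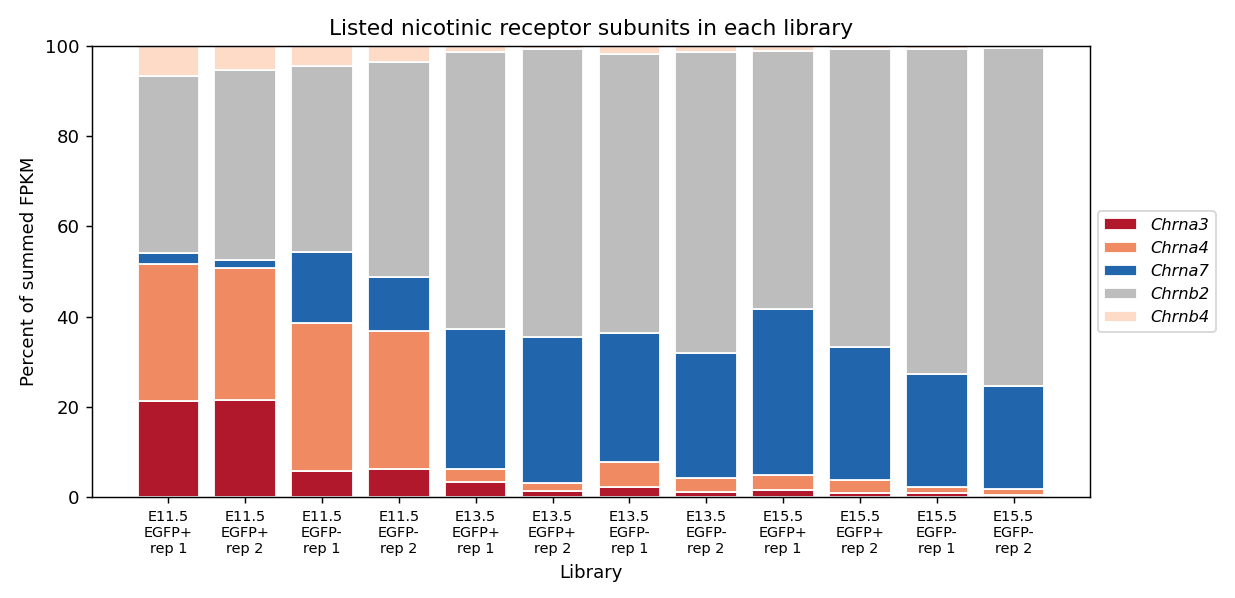
Share of the 5 listed nicotinic subunits in their summed FPKM, in percent, for each of the 12 libraries. *Chrna3* makes up 21.2 and 21.6% in the Ebf2-EGFP+ libraries of E11.5 and less than 7% in all others, and *Chrna7* is the largest alpha subunit in all libraries of E13.5 and E15.5.

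*Chrna3* and *Chrnb4* are neighbours on the minus strand of chromosome 9, with 1591 bases between their annotated ends. Since the pair fell together in Ebf2-EGFP+ cells, 250 bases of each are shown that precede the start given in the RefSeq promoter table (GRCm38.p6), on the minus strand, 5′ to 3′. *Chrna3* is at chr9:55026563-55026812 and *Chrnb4* at chr9:55048545-55048794, a window that lies within the annotated gene, as its record begins further upstream at base 55048953. Capitals mark E-boxes, written CANNTG and identical on both strands, the sequence class that basic helix-loop-helix factors bind.
Chrna3: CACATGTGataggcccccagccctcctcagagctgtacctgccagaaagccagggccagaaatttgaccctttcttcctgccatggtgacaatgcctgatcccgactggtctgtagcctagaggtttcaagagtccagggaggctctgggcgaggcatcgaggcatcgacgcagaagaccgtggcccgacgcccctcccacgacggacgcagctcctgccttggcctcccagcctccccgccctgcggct
Chrnb4: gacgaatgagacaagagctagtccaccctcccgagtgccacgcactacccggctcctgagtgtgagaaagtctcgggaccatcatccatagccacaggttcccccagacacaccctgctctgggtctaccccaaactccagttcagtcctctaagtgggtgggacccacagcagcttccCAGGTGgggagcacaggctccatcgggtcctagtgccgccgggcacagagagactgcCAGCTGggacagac
Each window holds 2 matches, which overlap in *Chrna3*. An E-box was present in 66.2% of 32851 promoter windows of this length in the RefSeq table and in 28 of the 53 windows (52.8%) of the 39 members found there. A match is a description of letters in this window.

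Genes of acetylcholine and monoamine handling were sparse, with 6 of 25 listed symbols in the table. *Ache*, which breaks down acetylcholine, was at 1.44 and 1.39 against 0.158 and 0.299 FPKM at E11.5, 0.566 and 0.569 against 0.0765 and 0.0861 at E13.5 and 7.18 and 15.7 against 0.296 and 0.398 at E15.5. Both Ebf2-EGFP+ libraries of E15.5 stood above all others, with a difference of 3.12 ± 0.24 (adjusted p = 2.9e-06) at E15.5 and a change of the difference of 2.14 ± 0.35 (adjusted p = 3.8e-04). *Ly6h*, which encodes a membrane-anchored modulator of nicotinic receptors, was at 37.2 and 40.5 against 18.3 and 20.8 FPKM at E11.5, 118 and 102 against 23.7 and 26.1 at E13.5 and 284 and 200.4 against 116 and 78.8 at E15.5, higher in Ebf2-EGFP+ cells by 0.96 ± 0.21 (adjusted p = 0.001), 2.10 ± 0.21 (adjusted p = 8.9e-06) and 1.31 ± 0.21 (adjusted p = 2.7e-04). *Tmem35*, a chaperone of *Chrna7* receptors, was at 34.6 and 29.5 against 12.96 and 11.98 FPKM at E11.5, 61.1 and 54.5 against 33.2 and 36.98 at E13.5 and 65.2 and 78.5 against 49.6 and 70.8 at E15.5, with a difference of 1.29 ± 0.18 (adjusted p = 4.3e-05) at E11.5 and 0.27 ± 0.18 (adjusted p = 0.22) at E15.5. *Slc18a2*, *Ddc* and *Bche* were on the lower side at E11.5, at -1.36 ± 0.17, -0.93 ± 0.10 and -0.91 ± 0.10, and none of the 6 was called lower at E15.5 by limma (31.6% of all genes), where *Slc18a2* was at 0.12 ± 0.17, *Ddc* at -0.11 ± 0.10 and *Bche* at -0.11 ± 0.10. At E15.5 *Ddc* was at 0.0185 and 0 against 0.138 and 0.0449 FPKM, and *Bche* at 0.0108 and 0 against 0.103 and 0.0659. For *Ddc* and *Bche* both Ebf2-EGFP+ libraries were thus still the lower. These levels are near 0, where log2(FPKM + 1) hardly shows a difference.

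Receptors for monoamines were few and mostly low. *Drd1a*, the older symbol of the dopamine D1 receptor gene *Drd1*, was listed at 0 and 0 against 0.0135 and 0.0335 FPKM at E11.5, 0.807 and 0.839 against 0.0913 and 0.116 at E13.5 and 1.95 and 2.16 against 0.0724 and 0.214 at E15.5. It was near 0 in all libraries of E11.5 and rose in Ebf2-EGFP+ cells by 1.61 ± 0.10 (adjusted p = 1.4e-07), while the change in Ebf2-EGFP- cells was 0.16 ± 0.10 (adjusted p = 0.15). The population difference was 0.72 ± 0.10 (adjusted p = 6.4e-05) at E13.5 and 1.42 ± 0.10 (adjusted p = 1.2e-06) at E15.5, and its growth was 1.45 ± 0.14 (adjusted p = 1.4e-05). With a pseudocount of 0.1 the change in Ebf2-EGFP- cells was called too (0.92, adjusted p = 0.015).

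The remaining 4 monoamine receptors and the muscarinic receptor *Chrm3*, named after their values were seen, stayed below 3.1 FPKM in every library. At E15.5 *Adra2a* was at 2.15 and 3.07 against 0.487 and 0.476 FPKM, with a difference of 1.27 ± 0.14 (adjusted p = 2.6e-05), and *Adra2c* at 0.768 and 1.09 against 2.39 and 2.004 FPKM, with a difference of -0.73 ± 0.15 (adjusted p = 0.0014). These are receptors of the same adrenergic subtype family and they were called in opposite directions at that stage. *Adrb1* was called higher throughout, by 0.61 ± 0.17 (adjusted p = 0.0051), 1.13 ± 0.17 (adjusted p = 1.1e-04) and 0.82 ± 0.17 (adjusted p = 0.0015), but at E11.5 the call ended without Ebf2-EGFP+ replicate 1 (adjusted p = 0.067). *Chrm3* was called at E13.5 alone, at 1.02 ± 0.15 (adjusted p = 1.3e-04). At E11.5 *Chrm3*, at 0.28 ± 0.15, was called in 4 of 17 alternatives (1.19, adjusted p = 0.0092, with a pseudocount of 0.1), and at E15.5, at 0.20 ± 0.15, in 1 of 17 (0.44, adjusted p = 0.026, without Ebf2-EGFP+ replicate 2 of that stage). *Htr3a*, a serotonin-gated channel known from interneurons of the caudal ganglionic eminence, was at 0.209 and 1.14 against 1.72 and 2.24 FPKM at E15.5, a difference of -0.88 ± 0.22 (adjusted p = 0.0056) that was lost without Ebf2-EGFP+ replicate 1 of that stage (-0.47, adjusted p = 0.053) and in a fit of the compared groups alone (adjusted p = 0.057).

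*Adora1* encodes the adenosine A1 receptor, which inhibits transmitter release. It was at 1.495 and 1.34 against 0.198 and 0.188 FPKM at E11.5, 4.0 and 6.94 against 0.327 and 0.790 at E13.5 and 23.6 and 14.3 against 4.88 and 4.02 at E15.5. The level rose in both populations, by 3.003 ± 0.26 (adjusted p = 1.6e-06) in Ebf2-EGFP+ and 2.19 ± 0.26 (adjusted p = 1.2e-05) in Ebf2-EGFP- cells, and within each stage the Ebf2-EGFP+ libraries were the higher. The difference was 1.02 ± 0.26 (adjusted p = 0.0036), 2.03 ± 0.26 (adjusted p = 4.9e-05) and 1.83 ± 0.26 (adjusted p = 1.5e-04). The change of the difference, 0.82 ± 0.37 (adjusted p = 0.077), was called in the replicate block (adjusted p = 0.0067) and after median-of-ratios scaling (adjusted p = 0.044). Without Ebf2-EGFP+ replicate 2 of E15.5 it was 1.16. Its sign depends on the scale, as the ratio of FPKM between populations was smaller at E15.5 than at E11.5.

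*Cnr1*, the receptor for endocannabinoids, had the largest log2(FPKM + 1) difference between populations of the 46 genes at E11.5, a rank that depends on the pseudocount, as with 0.1 the difference was 4.6 for *Cnr1* and 6.2 for *Cck*. *Cnr1* was at 54.9 and 56.4 against 2.28 and 2.12 FPKM at E11.5, 119 and 124 against 13.51 and 21.1 at E13.5 and 57.0 and 55.7 against 33.2 and 38.4 at E15.5. Ebf2-EGFP+ libraries were above Ebf2-EGFP- libraries at each stage, and both pairs of Ebf2-EGFP+ libraries at E11.5 and E15.5 lay between 54 and 58 FPKM. The difference shrank from 4.15 ± 0.18 (adjusted p = 2.5e-08) through 2.77 ± 0.18 (adjusted p = 1.5e-06) to 0.65 ± 0.18 (adjusted p = 0.0094), a change of -3.50 ± 0.25 (adjusted p = 2.8e-06). *Cnr1* rose in Ebf2-EGFP- cells by 3.52 ± 0.18 (adjusted p = 3.5e-08), beside a difference between stages of 0.02 ± 0.18 (adjusted p = 0.93) in Ebf2-EGFP+ cells. Without Ebf2-EGFP- replicate 1 of E15.5 the difference at that stage was 0.54 (adjusted p = 0.067).

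Cortical plate neuron markers had higher sums at the later stages than at E11.5 in both populations. All 9 of a marker list were in the table, with *Neurod6* the most abundant over all libraries, and their summed level was 448 and 493 against 92.4 and 93.6 FPKM at E11.5, 998 and 1000.0 against 450.3 and 567 at E13.5 and 1038 and 732 against 723 and 638 at E15.5. At E11.5 *Neurod6* did not lead, with *Tbr1* at 268 and 268 and *Neurod6* at 69.0 and 97.0 FPKM in Ebf2-EGFP+ cells, and *Fezf2* at 29.1 and 27.1 and *Neurod6* at 0.779 and 1.54 FPKM in Ebf2-EGFP- cells. The part of cortical plate neurons in the rise of *Cnr1*, *Glra2* and *Gabra2* in Ebf2-EGFP- cells was not tested.

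*Lpar1*, *S1pr1* and *S1pr3*, receptors for lysophosphatidic acid and sphingosine 1-phosphate, were on the opposite side to *Cnr1* at every stage. *Lpar1* was at 2.001 and 2.69 against 14.1 and 12.9 FPKM at E11.5, 0.901 and 0.391 against 16.7 and 11.2 at E13.5 and 0.419 and 0.342 against 5.87 and 2.98 at E15.5. At each stage the Ebf2-EGFP- libraries were the higher, and the difference was -2.12 ± 0.27 (adjusted p = 2.2e-05), -3.17 ± 0.27 (adjusted p = 4.4e-06) and -1.92 ± 0.27 (adjusted p = 1.3e-04). *S1pr1*, a receptor needed for vascular development, was at 0.312 and 0.396 against 10.1 and 8.86 FPKM at E11.5, 0.759 and 0.325 against 11.9 and 7.54 at E13.5 and 0.218 and 0.203 against 3.15 and 2.10 at E15.5. Its difference was -2.95 ± 0.22 (adjusted p = 7.1e-07), -2.78 ± 0.22 (adjusted p = 3.7e-06) and -1.57 ± 0.22 (adjusted p = 1.4e-04), with a change of 1.38 ± 0.31 (adjusted p = 0.0031), and *S1pr1* fell in Ebf2-EGFP- cells, with a change of -1.54 ± 0.22 (adjusted p = 4.6e-05).

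*S1pr2* and *S1pr3* fell with age in both populations. *S1pr2* was at 2.95 and 2.29 against 5.10 and 4.05 FPKM at E11.5, 1.60 and 1.40 against 1.47 and 1.49 at E13.5 and 1.14 and 1.05 against 0.870 and 0.786 at E15.5. *S1pr3* was at 1.69 and 1.63 against 5.56 and 4.43 FPKM at E11.5, 0.114 and 0.132 against 0.666 and 0.660 at E13.5 and 0.212 and 0.356 against 0.786 and 0.825 at E15.5. For *S1pr2* the populations differed at E11.5, at -0.62 ± 0.15 (adjusted p = 0.0025), overlapped at E13.5 and were not called at E15.5 (0.20 ± 0.15, adjusted p = 0.28), where both Ebf2-EGFP+ libraries were the higher, and for *S1pr3* the Ebf2-EGFP- libraries stayed above at each stage, at -1.17 ± 0.13 (adjusted p = 7.3e-06), -0.57 ± 0.13 (adjusted p = 0.0019) and -0.49 ± 0.13 (adjusted p = 0.0064). In Ebf2-EGFP- cells the change with age was -1.60 ± 0.15 (adjusted p = 2.0e-06) for *S1pr2* and -1.73 ± 0.13 (adjusted p = 3.5e-07) for *S1pr3*. Of the summed FPKM of the 3 sphingosine 1-phosphate receptors, *S1pr1* was 6.29 and 9.18 against 48.6 and 51.1% at E11.5, 30.6 and 17.4 against 84.9 and 77.8 at E13.5 and 13.9 and 12.7 against 65.6 and 56.6 at E15.5, and in each stage its share was larger in the Ebf2-EGFP- pair.

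**Figure D4:**
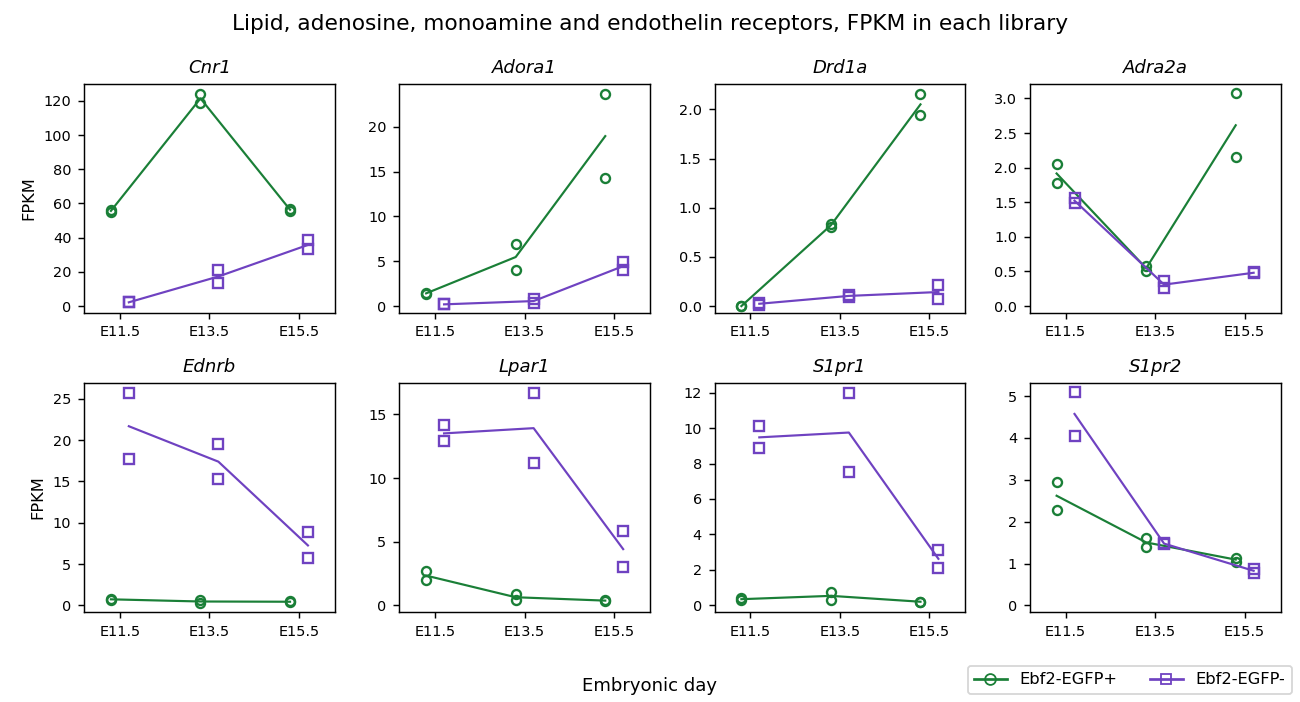
FPKM of *Cnr1*, *Adora1*, *Drd1a*, *Adra2a*, *Ednrb*, *Lpar1*, *S1pr1* and *S1pr2* by embryonic day. Each symbol is 1 library (circles Ebf2-EGFP+, squares Ebf2-EGFP-), lines join the means of 2 libraries, and the linear vertical scale differs between panels. *Ednrb*, *Lpar1* and *S1pr1* have their squares above their circles in each stage, and *Cnr1* rises in Ebf2-EGFP- cells from 2.28 and 2.12 to 33.2 and 38.4 FPKM.

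*Ednrb*, an endothelin receptor found in neural progenitors, glia and vessels, was at 0.776 and 0.710 against 25.6 and 17.7 FPKM at E11.5, 0.606 and 0.354 against 19.5 and 15.3 at E13.5 and 0.502 and 0.400 against 8.83 and 5.69 at E15.5. No library of one population reached the other, and the difference was -3.68 ± 0.23 (adjusted p = 2.2e-07), -3.63 ± 0.23 (adjusted p = 1.4e-06) and -2.48 ± 0.23 (adjusted p = 7.9e-06). Its change of 1.196 ± 0.33 (adjusted p = 0.0082) was not called with a pseudocount of 0.1 (adjusted p = 0.08). *Ednra* was on the same side throughout, with a log2(FPKM + 1) difference of -0.87 at E11.5 that was -0.57 by E15.5. Its mean level was 0.887 against 2.44 FPKM at E11.5 and 0.0483 against 0.563 at E15.5. The ratio between populations was thus wider at E15.5, and the smaller log2 difference there depends on the pseudocount. *Vipr2*, a receptor for VIP and PACAP, was lower at E11.5 (-1.36 ± 0.12) and E13.5 (-0.82 ± 0.12). *Ednra* and *Vipr2* were named after their values were seen.

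Markers of several other cell types were likewise higher in most Ebf2-EGFP- libraries. Radial glia markers (8 of 8 in the table, *Vim* the most abundant) summed to 430.2 and 406 against 1624 and 1341 FPKM at E11.5, 222 and 201 against 1575 and 1053 at E13.5 and 152 and 89.0 against 817 and 456 at E15.5. Markers of mural cells and meninges (9 of 12, *Col3a1* the most abundant) summed to 43.9 and 49.4 against 139 and 118 FPKM at E11.5, 2.02 and 1.56 against 11.9 and 10.1 at E13.5 and 2.63 and 7.10 against 7.38 and 8.56 at E15.5, with *Foxd1* listed at 0 in 1 Ebf2-EGFP+ library of E13.5 and 1 of E15.5. Endothelial markers were at or below 2.7 FPKM each (3 of 9, *Cldn5* the most abundant), summed to 0.322 and 0.536 against 7.19 and 4.39 FPKM at E11.5, 2.32 and 0.692 against 1.77 and 2.94 at E13.5 and 0.483 and 0.601 against 2.14 and 2.64 at E15.5, overlapped between populations at E13.5, and *Cldn5* was listed at 0 in Ebf2-EGFP+ replicate 1 of E11.5. The part of these cells in the differences of *Ednrb*, *Lpar1* and *S1pr1* was not tested.

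Other lists describe what else the sorted cells held. Cell cycle genes (6 of 6, *Pcna* the most abundant) summed to 238 and 214 against 935 and 818 FPKM at E11.5, 132 and 88.7 against 685 and 419.9 at E13.5 and 51.5 and 55.0 against 201 and 128 at E15.5, and intermediate progenitor markers (5 of 5, *Eomes*) to 249.5 and 231 against 68.3 and 73.9 FPKM at E11.5, 132 and 95.7 against 380.4 and 284 at E13.5 and 38.5 and 22.2 against 254 and 145 at E15.5. Subplate markers (4 of 6, *Nxph4*) summed to 147 and 136 against 16.8 and 16.6 FPKM at E11.5, 122 and 117 against 72.0 and 78.9 at E13.5 and 96.9 and 52.5 against 81.5 and 49.9 at E15.5, but the genes did not go together, with 3 called higher in Ebf2-EGFP+ cells and 1 lower at E11.5, 2 higher with 2 lower at E13.5, then 1 higher with 2 lower by E15.5. *Ctgf* of that list was at 0.367 and 0.238 against 5.35 and 4.53 FPKM at E11.5. Of the 5 intermediate progenitor markers 2 were called higher in Ebf2-EGFP+ cells at E11.5, where *Eomes* made up most of their sum (142 and 139 FPKM), and all 5 were called lower at both later stages, while cell cycle sums were higher in Ebf2-EGFP- cells at every stage. Erythroid genes (7 of 12, *Hbb-y*) summed to 100 and 34.7 against 1347 and 2884 FPKM at E11.5, 15.1 and 9.97 against 572 and 461 at E13.5 and 9.29 and 29.7 against 305 and 1422 at E15.5. Among the Ebf2-EGFP- libraries *Hbb-y* led at E11.5 (737 and 1589 FPKM), *Hbb-b2* at E13.5 (439 and 356 FPKM) and *Hbb-b1* at E15.5 (196 and 1196 FPKM), and *Hba-x*, *Hbb-bh1* and *Hbb-y* were listed at 0 in both Ebf2-EGFP+ libraries of E15.5. Of 9 microglia and macrophage markers only *Aif1* was in the table, at 0.272 and 0.359 against 0.131 and 0.162 FPKM at E11.5, 0.933 and 0.673 against 0.111 and 0.188 at E13.5 and 2.92 and 2.87 against 0.626 and 0.773 at E15.5. Their part in the receptor differences was not tested.

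Among neuropeptide precursors, *Sst*, *Npy* and *Tac2* were on the side of Ebf2-EGFP- cells and *Cck*, *Adcyap1* and *Nts* on that of Ebf2-EGFP+ cells wherever they were called between populations, and *Tac1* was called in both directions. *Sst*, the precursor of somatostatin, was at 1.01 and 2.14 against 10.3 and 17.5 FPKM at E11.5, 4.95 and 2.43 against 107 and 76.7 at E13.5 and 3.17 and 2.41 against 75.4 and 39.3 at E15.5. Every Ebf2-EGFP+ library was below 5 FPKM and every Ebf2-EGFP- library above 10 FPKM. The difference was -2.53 ± 0.37 (adjusted p = 5.8e-05), -4.35 ± 0.37 (adjusted p = 4.3e-06) and -3.88 ± 0.37 (adjusted p = 8.5e-06), and *Sst* rose in Ebf2-EGFP- cells by 1.94 ± 0.37 (adjusted p = 3.6e-04). The change of the difference from E11.5 to E15.5, -1.35 ± 0.52 (adjusted p = 0.04), was not called in 6 of 18 alternatives (adjusted p from 3.2e-04 to 0.16), and it was -0.89 (adjusted p = 0.14) without Ebf2-EGFP- replicate 1 of E15.5. The ganglionic eminence and interneuron markers given above were higher in the same libraries.

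*Cck*, the precursor of cholecystokinin, was listed at 17.3 and 11.7 against 0 and 0.296 FPKM at E11.5, 11.7 and 12.2 against 1.38 and 1.91 at E13.5 and 34.3 and 25.9 against 17.9 and 7.58 at E15.5. Its libraries did not overlap between populations at any stage. The difference went from 3.74 ± 0.32 (adjusted p = 1.5e-06) through 2.30 ± 0.32 (adjusted p = 7.7e-05) to 1.28 ± 0.32 (adjusted p = 0.0055), a change of -2.46 ± 0.46 (adjusted p = 8.6e-04), and *Cck* rose in Ebf2-EGFP- cells by 3.48 ± 0.32 (adjusted p = 1.7e-06). Without Ebf2-EGFP- replicate 2 of E15.5 the difference at that stage was 0.71 (adjusted p = 0.046). The rise in Ebf2-EGFP+ cells, 1.02 ± 0.32 (adjusted p = 0.013), was not called without replicate 2 of E11.5 (adjusted p = 0.12), without replicate 1 of E15.5 (adjusted p = 0.09) or with a pseudocount of 0.1 (adjusted p = 0.09).

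*Npy* encodes neuropeptide Y and was at 0.212 and 0.889 against 3.75 and 7.28 FPKM at E11.5, 1.95 and 0.799 against 13.7 and 8.59 at E13.5 and 18.9 and 25.7 against 24.9 and 24.1 at E15.5. It was lower in Ebf2-EGFP+ cells at E11.5 (-2.05 ± 0.33, adjusted p = 1.4e-04) and E13.5 (-2.36 ± 0.33, adjusted p = 8.2e-05), and at E15.5 the populations overlapped (-0.15 ± 0.33, adjusted p = 0.72). The rise with age was 3.93 ± 0.33 (adjusted p = 1.3e-06) in Ebf2-EGFP+ cells and 2.02 ± 0.33 (adjusted p = 1.3e-04) in Ebf2-EGFP- cells, and the change of the difference was 1.90 ± 0.47 (adjusted p = 0.005).

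*Adcyap1*, the precursor of PACAP, was at 5.98 and 5.32 against 0.284 and 0.0979 FPKM at E11.5, 4.35 and 3.45 against 1.02 and 0.925 at E13.5 and 1.74 and 3.30 against 0.785 and 0.876 at E15.5. The Ebf2-EGFP+ libraries were higher at each stage, by 2.48 ± 0.20 (adjusted p = 1.1e-06), 1.31 ± 0.20 (adjusted p = 1.5e-04) and 0.91 ± 0.20 (adjusted p = 0.0027), the last of which was 0.58 (adjusted p = 0.025) without Ebf2-EGFP+ replicate 2. *Adcyap1* fell in Ebf2-EGFP+ cells, with a change of -0.95 ± 0.20 (adjusted p = 0.0011), or -0.63 (adjusted p = 0.013) without Ebf2-EGFP+ replicate 1 of E15.5, while its change in Ebf2-EGFP- cells, 0.62 ± 0.20 (adjusted p = 0.013), was lost without Ebf2-EGFP- replicate 2 of E11.5 (adjusted p = 0.093). The change of the difference was -1.58 ± 0.29 (adjusted p = 7.7e-04).

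*Tac1*, which encodes substance P and neurokinin A, was listed at 4.09 and 2.66 against 1.17 and 0.789 FPKM at E11.5, 0.291 and 0.210 against 0.901 and 0.610 at E13.5 and 0 and 0 against 0.294 and 0.251 at E15.5. The difference was 1.13 ± 0.16 (adjusted p = 4.9e-05) at E11.5 and -0.35 ± 0.16 (adjusted p = 0.083) at E15.5, where it was called in 5 of 17 alternatives, among them the replicate block (adjusted p = 0.022) and a pseudocount of 0.1, with which it was -1.89 (adjusted p = 3.8e-04), and *Tac1* fell in both populations (-2.11 ± 0.16, adjusted p = 5.9e-07, and -0.63 ± 0.16, adjusted p = 0.003). At E13.5, -0.49 ± 0.16 (adjusted p = 0.017) was not called without Ebf2-EGFP+ replicate 2 (adjusted p = 0.084) or Ebf2-EGFP- replicate 1 (adjusted p = 0.12). *Tac2*, the precursor of neurokinin B, was listed at 0 and 0 against 0 and 0 FPKM at E11.5, 0.201 and 0.217 against 0 and 0.700 at E13.5 and 1.996 and 0.553 against 10.1 and 3.07 at E15.5. It was at 0 in all libraries of E11.5, and the difference at E15.5, -1.64 ± 0.40 (adjusted p = 0.0049), ended without Ebf2-EGFP+ replicate 2 (adjusted p = 0.053) or in a fit of the compared groups alone (adjusted p = 0.061), and it was -0.92 (adjusted p = 0.042) without Ebf2-EGFP- replicate 1.

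*Nts*, the precursor of neurotensin, was at 0.674 and 0.923 against 0.227 and 0.0374 FPKM at E11.5, 5.45 and 0.716 against 0.154 and 0.130 at E13.5 and 0.634 and 2.98 against 0.0356 and 0.0802 at E15.5. The Ebf2-EGFP+ libraries of E13.5 and of E15.5 differed widely from each other, and replicate 1 was the higher at E13.5 and replicate 2 at E15.5. The difference of 1.54 ± 0.49 (adjusted p = 0.014) at E13.5 became 0.59 without Ebf2-EGFP+ replicate 1 (adjusted p = 0.17) and 2.50 (adjusted p = 3.9e-04) without replicate 2, and it was not called without replicate 1 (adjusted p = 0.058) or replicate 2 (adjusted p = 0.053) of the Ebf2-EGFP- cells of that stage. At E15.5, 1.27 ± 0.49 (adjusted p = 0.044) was lost in 11 of 18 alternatives (adjusted p from 0.0046 to 0.34), and it was 0.63 (adjusted p = 0.34) without Ebf2-EGFP+ replicate 2 and 1.91 (adjusted p = 0.014) without replicate 1.

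**Figure D5:**
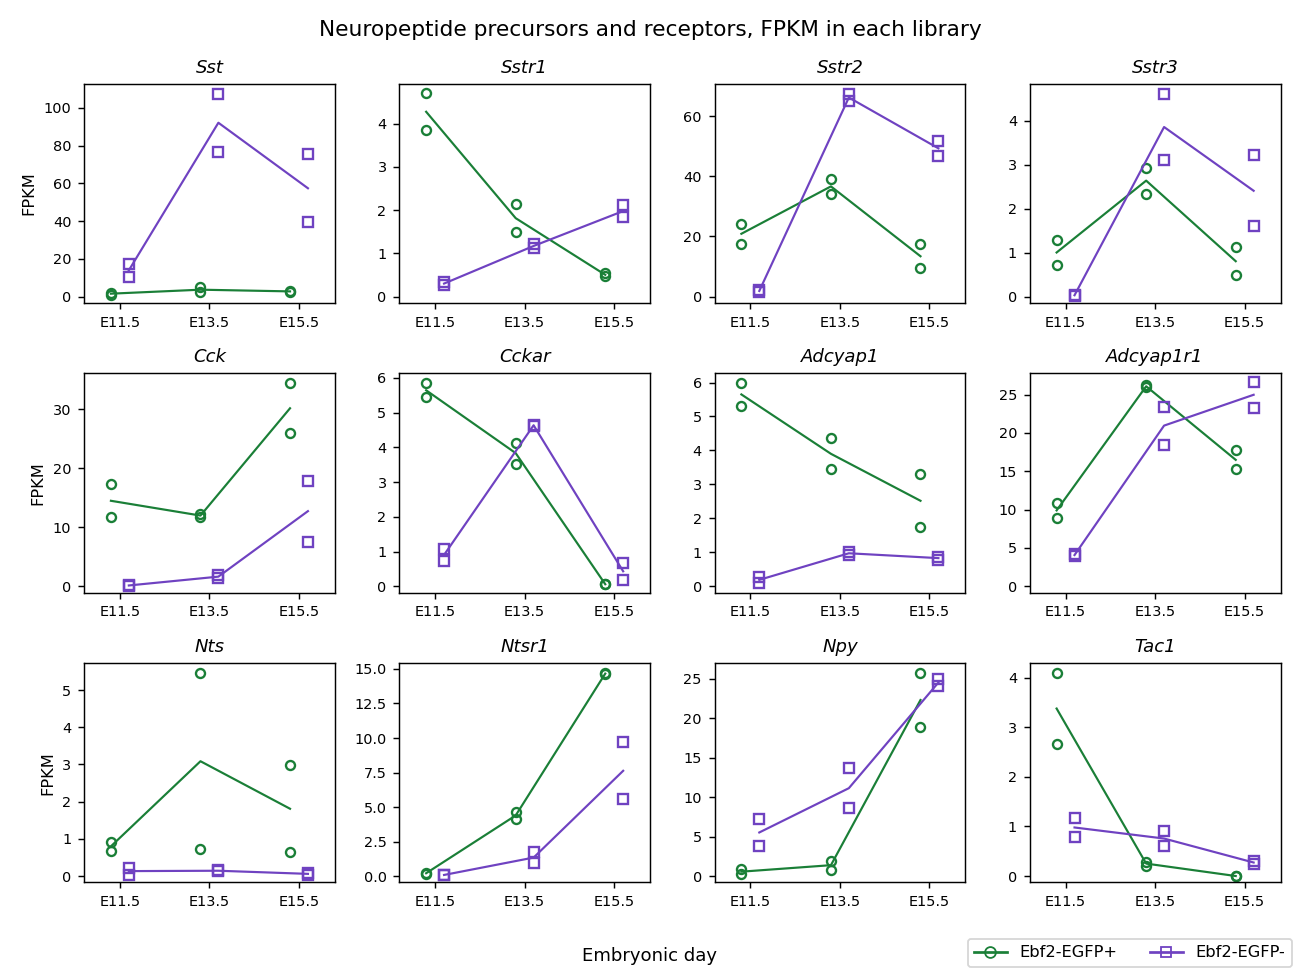
FPKM of neuropeptide precursors and receptors by embryonic day. Each symbol is 1 library (circles Ebf2-EGFP+, squares Ebf2-EGFP-), lines join the means of 2 libraries, and the linear vertical scale differs between panels. For *Sstr1*, *Sstr2* and *Sstr3* the circles lie above the squares at E11.5 and below them at E15.5, and the 2 Ebf2-EGFP+ libraries of *Nts* lie apart at E13.5 (5.45 and 0.716 FPKM).

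Peptide receptors, counted here with the endothelin receptors, did not all follow the same course. From E11.5 to E15.5 the difference of 6 of the 10 moved towards Ebf2-EGFP- cells (27.7% of all genes) and that of 2 towards Ebf2-EGFP+ cells (32%), and the call turned for *Sstr1*, *Sstr2*, *Sstr3* and *Adcyap1r1* alone. Of 10 receptors, 6 were called higher and 3 lower at E11.5, 3 higher and 4 lower at E13.5, and 1 higher with 6 lower at E15.5. As shares of the 10 these were 60% higher and 30% lower at E11.5 (36.8% and 44.9% of all genes), 30% and 40% at E13.5, near the 32.1% and 43.5% of all genes, and 10% and 60% at E15.5 (25.8% and 31.6%). The median difference moved from 1.02 to -0.31 and -0.57. *Sstr2*, a somatostatin receptor of migrating cortical neurons, was at 17.5 and 24.3 against 1.41 and 2.38 FPKM at E11.5, 39.1 and 34.2 against 64.8 and 67.5 at E13.5 and 17.4 and 9.48 against 51.7 and 46.9 at E15.5. The Ebf2-EGFP+ pair was above at E11.5 and below at E13.5 and E15.5, with no overlap at any stage. The difference was 2.92 ± 0.25 (adjusted p = 1.6e-06) at E11.5 and -1.86 ± 0.25 (adjusted p = 1.0e-04) at E15.5, a change of -4.78 ± 0.36 (adjusted p = 3.3e-06), and *Sstr2* rose in Ebf2-EGFP- cells by 4.14 ± 0.25 (adjusted p = 9.8e-08). At E13.5, -0.84 ± 0.25 (adjusted p = 0.011) was not called after median-of-ratios scaling (-0.53, adjusted p = 0.066) or without Ebf2-EGFP+ replicate 2 (adjusted p = 0.063). The fall in Ebf2-EGFP+ cells, -0.64 ± 0.25 (adjusted p = 0.037), was lost in 4 of 17 alternatives (adjusted p from 0.003 to 0.39). It was -0.24 (adjusted p = 0.39) without Ebf2-EGFP+ replicate 2 of E15.5, -1.04 (adjusted p = 0.003) without replicate 1 of that pair, -0.41 (adjusted p = 0.25) without Ebf2-EGFP+ replicate 2 of E11.5, and -0.41 (adjusted p = 0.14) after median-of-ratios scaling.

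*Sstr1* was at 3.84 and 4.70 against 0.331 and 0.274 FPKM at E11.5, 2.14 and 1.48 against 1.22 and 1.12 at E13.5 and 0.539 and 0.471 against 2.11 and 1.85 at E15.5. The Ebf2-EGFP+ libraries fell from the highest to the lowest pair apart from the Ebf2-EGFP- libraries of E11.5. The difference was 2.01 ± 0.15 (adjusted p = 6.8e-07) at E11.5 and -0.98 ± 0.15 (adjusted p = 2.3e-04) at E15.5, with a change of -2.997 ± 0.21 (adjusted p = 2.5e-06), and with changes of -1.80 ± 0.15 (adjusted p = 1.1e-06) in Ebf2-EGFP+ and 1.19 ± 0.15 (adjusted p = 1.6e-05) in Ebf2-EGFP- cells between these stages. At E13.5 the call for 0.36 ± 0.15 (adjusted p = 0.044) ended in 10 of 18 alternatives (adjusted p from 0.0026 to 0.33), with 0.19 (adjusted p = 0.33) without Ebf2-EGFP+ replicate 1 of that stage and 0.57 (adjusted p = 0.066) for a pseudocount of 0.1. *Sstr3*, named after its values were seen, had a difference of 0.94 ± 0.26 (adjusted p = 0.0046) at E11.5, lost without Ebf2-EGFP+ replicate 2 (adjusted p = 0.052). At E15.5 *Sstr3* was at -0.90 ± 0.26 (adjusted p = 0.01), lost without Ebf2-EGFP+ replicate 2 (adjusted p = 0.094) or Ebf2-EGFP- replicate 1 (-0.55, adjusted p = 0.11) and in a fit of the compared groups alone (adjusted p = 0.059). Of the summed FPKM of the 3 somatostatin receptors, *Sstr2* made up 79.3 and 80.2 against 79.9 and 88.3% at E11.5, 88.5 and 89.9 against 93.7 and 92.2 at E13.5 and 91.2 and 90.9 against 90.7 and 93.1 at E15.5, so the receptor mixture was led by the same gene in all 12 libraries.

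*Cckar*, a cholecystokinin receptor, was at 5.84 and 5.44 against 1.09 and 0.722 FPKM at E11.5, 4.13 and 3.53 against 4.65 and 4.62 at E13.5 and 0.0595 and 0.0620 against 0.682 and 0.183 at E15.5. It was high in the Ebf2-EGFP+ libraries of E11.5 and in both populations at E13.5, and below 0.7 FPKM in all libraries of E15.5. The difference was 1.81 ± 0.18 (adjusted p = 3.8e-06) at E11.5 and -0.22 ± 0.18 (adjusted p = 0.27) at E13.5, and the fall in Ebf2-EGFP+ cells was a change of -2.65 ± 0.18 (adjusted p = 2.7e-07). At E15.5, -0.41 ± 0.18 (adjusted p = 0.068) was called in the replicate block (adjusted p = 0.035), with a pseudocount of 0.1 (-1.55, adjusted p = 0.0055) and without Ebf2-EGFP- replicate 2 of that stage (-0.66, adjusted p = 0.011), and the fall in Ebf2-EGFP- cells, -0.43 ± 0.18 (adjusted p = 0.043), ended in 8 of 17 alternatives (adjusted p from 0.0052 to 0.41), and it was -0.17 (adjusted p = 0.41) without Ebf2-EGFP- replicate 2 of E15.5 and -0.68 (adjusted p = 0.0052) without replicate 1. *Cck* and *Cckar* thus had their highest levels at different stages in Ebf2-EGFP+ cells.

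*Ntsr1*, a neurotensin receptor known from layer 6 neurons, was at 0.168 and 0.236 against 0.0847 and 0.0702 FPKM at E11.5, 4.64 and 4.14 against 0.911 and 1.76 at E13.5 and 14.7 and 14.6 against 5.57 and 9.68 at E15.5. It rose in Ebf2-EGFP+ cells by 3.70 ± 0.23 (adjusted p = 1.5e-07) and in Ebf2-EGFP- cells by 2.96 ± 0.23 (adjusted p = 5.0e-07). The difference was 1.23 ± 0.23 (adjusted p = 5.5e-04) at E13.5 and 0.90 ± 0.23 (adjusted p = 0.0059) at E15.5, where it was lost without Ebf2-EGFP- replicate 1 (0.55, adjusted p = 0.064). Its change, 0.75 ± 0.33 (adjusted p = 0.067), was called in the replicate block (adjusted p = 0.034) and after median-of-ratios scaling (adjusted p = 0.041). Without Ebf2-EGFP- replicate 2 of E15.5 the change was 1.10. Its size depends on the pseudocount, as the levels at E11.5 were low. The ratio of mean FPKM was smaller at E15.5 (14.7 against 7.62) than at E11.5 (0.202 against 0.0774).

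*Adcyap1r1* and *Oprl1*, the receptors for PACAP and nociceptin, were named after their values were seen. *Adcyap1r1* rose in both populations, by 0.68 ± 0.16 (adjusted p = 0.0026) and 2.35 ± 0.16 (adjusted p = 2.3e-07), and its difference went from 1.10 ± 0.16 (adjusted p = 7.4e-05) to -0.57 ± 0.16 (adjusted p = 0.011). At E15.5 the call ended after median-of-ratios scaling (-0.37, adjusted p = 0.11) and without replicate 2 of the Ebf2-EGFP+ (adjusted p = 0.076) or Ebf2-EGFP- cells (adjusted p = 0.066). *Oprl1* was at 15.6 and 15.3 against 3.48 and 4.29 FPKM at E11.5, 12.97 and 9.47 against 5.56 and 6.22 at E13.5 and 11.4 and 12.05 against 7.90 and 9.10 at E15.5, with a difference of 1.76 ± 0.18 (adjusted p = 4.0e-06) at E11.5 and 0.43 ± 0.18 (adjusted p = 0.056) at E15.5, which was called in 5 of 18 alternatives, among them the replicate block (adjusted p = 0.029) and median-of-ratios scaling (0.62, adjusted p = 0.01).

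Genes of peptide processing and dense-core granules, 18 of a list of 23, were mostly on the Ebf2-EGFP+ side. At E11.5, 12 were called higher and 6 lower, with a median of 1.08, at E13.5 there were 10 higher and 3 lower, with a median of 0.64, and at E15.5 there were 11 higher and 3 lower, with a median of 0.88. As shares of the 18 these were 66.7% and 33.3% at E11.5 (36.8% and 44.9% of all genes), 55.6% and 16.7% at E13.5 (32.1% and 43.5%), and 61.1% and 16.7% at E15.5 (25.8% and 31.6%). *Pcsk2*, a protease that cleaves peptide precursors, was at 4.83 and 3.61 against 0.871 and 0.944 FPKM at E11.5, 8.53 and 9.44 against 0.821 and 0.999 at E13.5 and 8.97 and 6.43 against 1.41 and 1.43 at E15.5, higher by 1.44 ± 0.19 (adjusted p = 2.3e-05), 2.39 ± 0.19 (adjusted p = 3.5e-06) and 1.83 ± 0.19 (adjusted p = 1.4e-05). *Pam*, which amidates the ends of many peptides, was at 28.4 and 25.4 against 12.4 and 9.80 FPKM at E11.5, 27.6 and 19.2 against 36.2 and 33.9 at E13.5 and 10.8 and 9.91 against 41.6 and 50.1 at E15.5. Its difference turned from 1.21 ± 0.19 (adjusted p = 8.4e-05) at E11.5 to -2.04 ± 0.19 (adjusted p = 6.6e-06) at E15.5, a change of -3.25 ± 0.26 (adjusted p = 5.5e-06). *Chga*, a granule protein, turned less far, from 2.16 ± 0.18 (adjusted p = 1.5e-06) to -0.48 ± 0.18 (adjusted p = 0.044).

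Genes of G protein signalling downstream of these receptors, 37 of a list of 72, were also more often called higher than lower in Ebf2-EGFP+ cells. In the order of the stages the counts were 20 against 4, 24 against 7 and 20 against 5, with medians of 0.66, 0.76 and 0.62. The shares called higher were 54.1%, 64.9% and 54.1%, beside 36.8%, 32.1% and 25.8% of all genes, and those called lower 10.8% at E11.5 and 18.9% at E13.5, beside 44.9% and 43.5%, with 5 of 37 at E15.5, beside 31.6%. *Kcnj3*, a subunit of the potassium channels that GABA-B and other receptors open, was at 2.66 and 4.77 against 0.392 and 0.300 FPKM at E11.5, 10.4 and 9.17 against 2.97 and 4.06 at E13.5 and 9.54 and 9.96 against 5.06 and 6.09 at E15.5. *Kcnj5*, another subunit, was at 4.40 and 5.62 against 0.0523 and 0.00868 FPKM at E11.5, 2.43 and 2.19 against 0.0266 and 0.00996 at E13.5 and 2.76 and 4.08 against 0.0400 and 0.0123 at E15.5, below 0.06 FPKM in all Ebf2-EGFP- libraries and above 2 FPKM in all Ebf2-EGFP+ libraries. Its difference was 2.54 ± 0.16 (adjusted p = 2.1e-07), 1.70 ± 0.16 (adjusted p = 6.8e-06) and 2.09 ± 0.16 (adjusted p = 2.2e-06). *Adcy1*, an adenylyl cyclase, was at 2.46 and 2.64 against 0.908 and 0.865 FPKM at E11.5, 8.79 and 13.4 against 0.604 and 1.03 at E13.5 and 32.6 and 38.1 against 2.93 and 4.40 at E15.5, and its difference grew from 0.91 ± 0.22 (adjusted p = 0.0026) to 2.98 ± 0.22 (adjusted p = 2.2e-06) with a change of 2.06 ± 0.32 (adjusted p = 2.8e-04). *Gnai2*, an inhibitory G protein subunit, was called lower throughout, at -1.31 ± 0.20, -1.60 ± 0.20 and -0.82 ± 0.20.

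The gene of a role with the highest mean over all libraries was set beside all genes of the table by Pearson correlation over the 6 group means of log2(FPKM + 1), as a description. The means closest to those of *Gabbr1* were of *Sema4g* (r = 0.999), *Nyap1* (r = 0.999) and *Dlg4* (r = 0.998), and for *Cnr1* of *0610010F05Rik* (r = 0.997), *Lrrc7* (r = 0.994) and *Mapk8* (r = 0.992). For *Adora1* they were of *Anks1b* (r = 0.999) and *Opcml* (r = 0.998).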

How the data were processed

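RNA of FACS-sorted Ebf2-EGFP+ and Ebf2-EGFP- cells was selected with oligo(dT) beads and sequenced by the authors, who, per the submitters' processing notes and the study's methods, aligned reads to mm10 with TopHat2 2.0.8b and made FPKM values with Cufflinks 2.2.0. The deposited FPKM table lists 4859 coding genes reported as differential. Its columns with the authors' group means, fold changes, p-values and adjusted p-values for each stage were not used, nor was the table of long noncoding RNAs. The study's methods give an average of the reads per sample but not the depth of each library, and the FPKM could not be turned into whole fragments: in any group no more than 44.4% of the low genes had ratios between replicates that fit small whole numbers.

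The 46 genes were selected by symbol, and the labels gave 12 libraries in 6 groups. limma 3.58.1 (R 4.3.3) was fitted to log2(FPKM + 1) with a variance trend, 6 group means and no covariates, with Benjamini-Hochberg adjustment over all genes in each of 6 comparisons. The script was tested on simulated data. The members, roles and gene lists were chosen with earlier results of these data known. Values by library are given for genes that were called, had libraries without overlap and were among the 3 largest differences of a direction in any comparison, and for GABA and glycine receptor subunits and peptide precursors. Some genes that this rule covers, and some genes of the lists, are not reported here. Genes named from the pathway lists were chosen after their values were seen. Patterns most alike were sought for the most abundant gene of a role. Of the listed symbols, *Tmem35* and *Tmem35a* name 1 gene. Alternatives were a pseudocount of 0.1, median-of-ratios scaling, a mean of at least 1 FPKM, no variance trend, a fit of the compared groups alone, a replicate block, leaving out each library, and a 2-fold minimum.

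Replicate numbers come from the sample titles. For each stage, the deviations of a replicate from its group mean were compared between populations, and their correlation over genes was 0.431 (E11.5), 0.534 (E13.5) and 0.431 (E15.5), all over 0.1, so that libraries of the same number were taken as pairs for the replicate block. The study describes replicates as separate preparations of sorted cells, so that p-values rest on the spread between libraries, estimated over all 6 groups. Only the replicate block used the pairing, and all main results come from the fit without it.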

Additional observations from a re-analysis of the deposited data

Results flagged for a closer look

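The difference between populations was not the same at E15.5 as at E11.5, by limma's interaction test, for 23 of the 31 reported genes that the rule for values by library selected. Of the 31, 11 moved towards Ebf2-EGFP+ cells (32% of all genes) and 12 towards Ebf2-EGFP- cells (27.7%). Since the rule took genes in part for large values in this comparison, nothing is read from these counts. Genes named after their values were seen are not counted among them. Values are log2 changes of the difference, and negative values mean that the difference moved towards Ebf2-EGFP- cells. Changes towards Ebf2-EGFP- cells were -4.78 for *Sstr2*, -3.50 for *Cnr1*, -2.997 for *Sstr1*, -2.92 for *Chrna3*, -2.46 for *Cck*, -2.22 for *Cckar*, -1.64 for *Tac2*, -1.58 for *Adcyap1*, -1.48 for *Tac1*, -1.47 for *Chrna4*, -1.35 for *Sst* and -0.91 for *Gabbr1*. Changes towards Ebf2-EGFP+ cells were 1.90 for *Npy*, 1.65 for *Gabrd*, 1.45 for *Drd1a*, 1.38 for *S1pr1*, 1.196 for *Ednrb*, 1.07 for *Glrb*, 0.95 for *Gabra5*, 0.82 for *S1pr2*, 0.72 for *Gabra3*, 0.70 for *Gabrb1* and 0.67 for *S1pr3*. Leaving out single libraries ended this call for *Gabra3* (6 of 18 alternatives, adjusted p from 0.0082 to 0.12), *Gabrb1* (7 of 17, adjusted p from 0.0017 to 0.16), *Sst* (6 of 18, adjusted p from 3.2e-04 to 0.16) and *Tac2* (7 of 18, adjusted p from 1.8e-04 to 0.12), counts that include other alternatives. It also ended for *Gabbr1* without Ebf2-EGFP- replicate 1 of E11.5 (adjusted p = 0.06) and for *Glrb* without Ebf2-EGFP+ replicate 1 of E11.5 (adjusted p = 0.053). A pseudocount of 0.1 ended it for *Ednrb* (adjusted p = 0.08), *Gabra5* (adjusted p = 0.27) and *S1pr3* (adjusted p = 0.58).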

How the results depend on the processing

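With each library left out in turn, which leaves 1 group with a lone library assumed to vary like the others, the number of genes called higher in Ebf2-EGFP+ cells ranged from 22 to 25 (E11.5), 22 to 25 (E13.5) and 16 to 23 (E15.5), and the number called lower from 9 to 10, 8 to 10 and 10 to 14. For the change of the population difference the ranges were 11 to 14 higher and 17 to 21 lower, for the change with age in Ebf2-EGFP+ cells 20 to 23 and 11 to 13, and in Ebf2-EGFP- cells 27 to 29 and 11 to 13. Asking for at least 2-fold beside the adjusted p gave 5 lower genes at E13.5 (10 without it), 12 higher (22) and 6 lower (13) at E15.5, 8 whose difference moved towards the Ebf2-EGFP+ side between E11.5 and E15.5 (14) and 8 that fell in Ebf2-EGFP- cells (13), since fewer genes pass a second threshold. With a pseudocount of 0.1, the difference moved towards Ebf2-EGFP+ cells for 9 genes (14), and the cause was not tested. All other counts stayed within 1.5 times.

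For the 31 reported genes that the rule for values by library selected, leaving out a library ended 80 calls, made 9 and kept 2143 results on their side, and the other alternatives ended 22, made 23 and kept 985. None turned a called direction. The replicate block made the 7 calls given beside their genes and changed no other call of the 46 genes. It was not possible for changes with age, as each pair lies within a stage. Depth limits what can be said of values near 0, and as that of each library is not given, no counting error was computed.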
